A study of Mus musculus with 8 samples.

Results

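Hox genes encode homeodomain transcription factors and lie in 4 clusters in the mouse, Hoxa, Hoxb, Hoxc and Hoxd. The genes examined here are the protein-coding genes whose symbol is Hox, a cluster letter and a paralog number, found through the Ensembl identifiers of the deposited gene table. The annotation holds 39 of them, 38 had an entry among the 50686 genes of the table, and Hoxd4 was not analysed here. Of the 38, 37 had a count above 0 in at least 1 library and 21 passed the filter on low counts that leaves 20473 genes for testing. The other 17 were too low to test and are given by their levels.

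The study asked how spaceflight and loss of Rad9, a DNA damage checkpoint gene, alter gene expression in mouse embryonic stem cells (mESCs). Wild-type mESCs (R9wt) and Rad9-/- mESCs (R9del) were grown in space or on the ground (Space, Ground) for 1 day (D1) or 5 days (D5), and RNA was sequenced from 8 libraries, 1 for each combination. No other allele or agent is named in the labels, and whether the R9del line is 1 clone is not given in the sources used here. D1 and D5 cultures occupied different culture devices with separate temperature control and were seeded at different cell numbers, so these cannot be told apart from culture duration. At D5 more R9del than R9wt cells were put in, so cell number at the start is partly tied to genotype as well.

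Library totals ran from 58238440 counts in Space_R9del_D5 to 96416907 in Ground_R9wt_D5. Levels are given as CPM, counts scaled to a common library size with TMM factors, in the order Ground D1, Ground D5, Space D1 and Space D5. On this scale 10 counts equal 0.109 to 0.171 CPM, depending on the library. Low counts in the table pile up at 4, 7, 10 and 14, as if 1 sequenced fragment often gave more than 1 count. Counts of 1 (7779 entries) and 2 (7951) are common too, so the number of counts per fragment is not known. Levels under the CPM of 10 counts may rest on very few fragments, and a count of 0 is compatible with a level up to that limit. Such limits cover counting error only.

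Embryonic Hox expression follows gene order: anterior genes of a cluster are switched on early and towards the head, posterior genes later and towards the tail. In undifferentiated mESCs the clusters are known to be held at low levels by Polycomb proteins, and retinoic acid, Wnt signalling and Cdx factors open them on differentiation. Hox proteins bind DNA together with TALE cofactors of the Pbx, Meis and Pknox families.

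The genotype labels were checked first on Rad9a itself, which the annotation lists as Rad9. It stood at 91.5, 83.8, 90.9 and 70.6 CPM in R9wt and 23.6, 28.1, 20.9 and 27.5 CPM in R9del. All R9del libraries lay below all R9wt libraries, and the fitted difference was -1.75 ± 0.21 (log2, SE; Benjamini-Hochberg adjusted p = 0.0277, edgeR's quasi-likelihood test; lower in 4 of 4 matched pairs). A matched pair is a pair of libraries that share the other 2 variables. Reads on Rad9a remained in R9del; which exons they cover cannot be read from counts per gene.

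The cell type label was checked on pluripotency markers. Their summed level was 8014, 7049, 4658 and 5251 CPM in R9wt and 5548, 5837, 5312 and 6320.4 CPM in R9del. Dppa5a was the most abundant of the 10 markers, none of which was at 0 in every library, and Pou5f1, the gene of the core pluripotency factor Oct4, ranged from 963 to 1767 CPM. Of the 10 markers, 1 was called higher in Space (Esrrb, 1.20 ± 0.20) and 1 lower in R9del (Dppa5a, -1.03 ± 0.33), at 2-fold and an unadjusted p under 0.05, the threshold explained below. With matched pairs as a block Zfp42 was also called, higher in R9del (1.54) and lower in Space (-1.35). All 8 libraries carried high levels of these stem cell markers.

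Hox genes were present at low levels beside these markers. Their summed level over 38 genes was 28.0, 39.7, 35.7 and 37.8 CPM in R9wt and 12.7, 16.7, 16.4 and 13.3 CPM in R9del. The 4 R9del libraries were all below the 4 of R9wt, with means of 14.8 ± 2.08 and 35.3 ± 5.13 CPM (SD, n = 4 each) and a ratio of 0.419. The mean of the Space libraries was 1.06 times that of the Ground libraries, and the mean of D5 was 1.16 times that of D1, with overlap in both cases. In bulk RNA, fewer cells of a type and less RNA per cell cannot be told apart, for these sums and for every difference below.

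**Figure D1:**
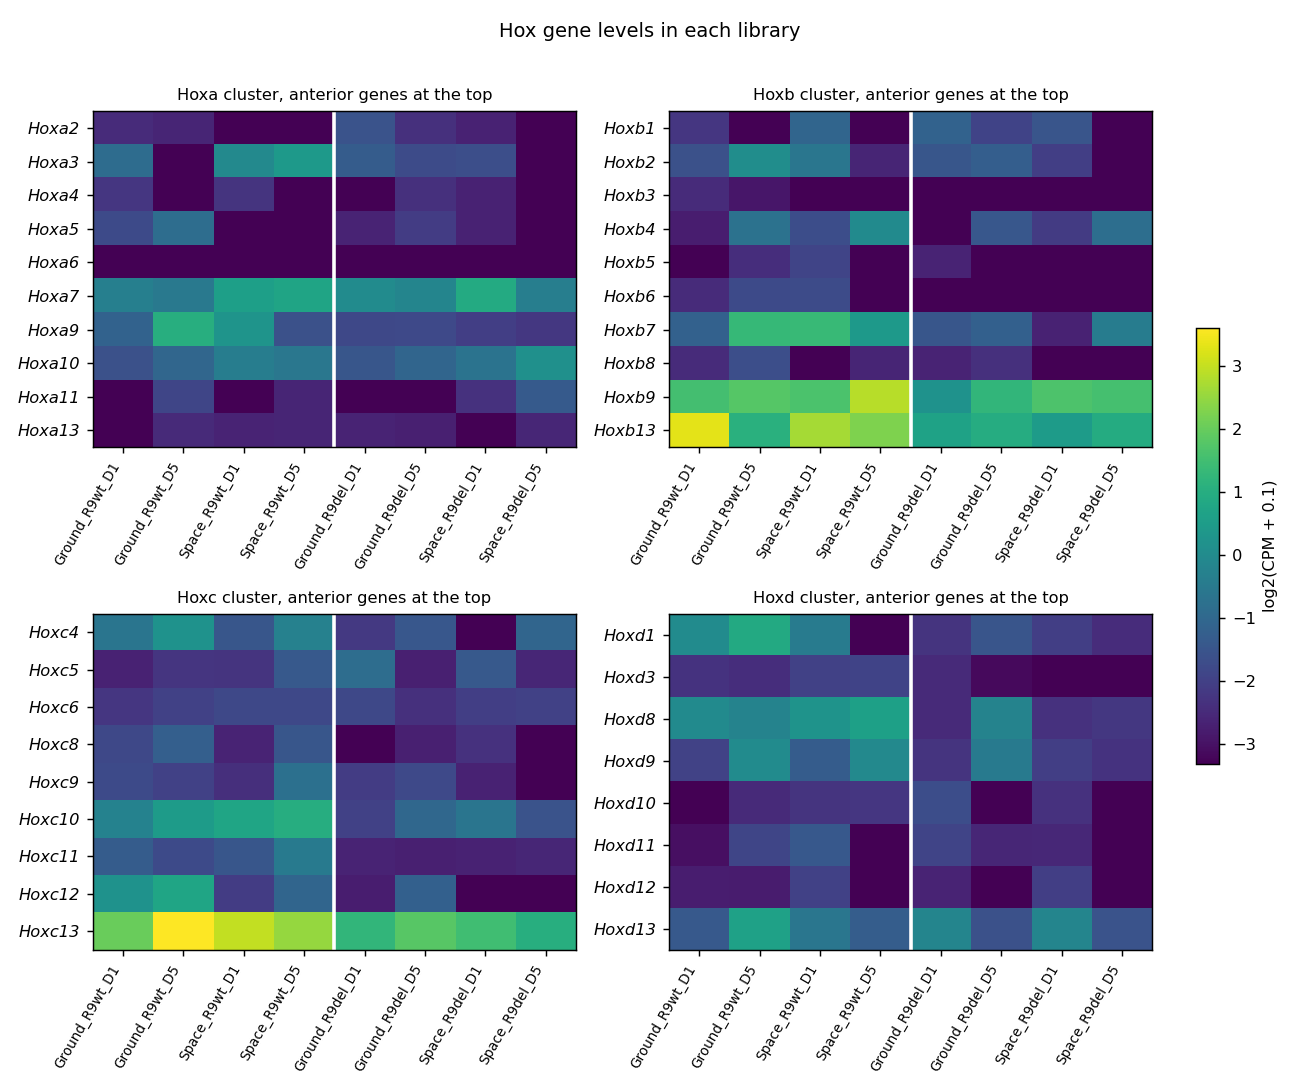
Levels of Hox genes as log2(CPM + 0.1) in the 8 libraries, with 1 panel for each cluster and genes in paralog order; the white line separates R9wt (left) from R9del (right). Hoxc13, Hoxb13 and Hoxb9 stand out as the brightest lines, and most other genes stay below 1 CPM.

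Few members made up much of the signal. Per kb of exon, the mean level over the 8 libraries was 2.01 CPM per kb for Hoxc13, 1.67 for Hoxb13 and 1.25 for Hoxb9, against 0.449 for Hoxc10, 0.427 for Hoxc12 and 0.367 for Hoxa7. Hoxc13, Hoxb13 and Hoxb9 together gave between 38.0% and 59.5% of the summed Hox CPM in each library. Their order is not firm, since the levels of these 3 genes in single libraries overlap.

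At the other end, Hoxa6 had 0 counts in all 8 libraries, and Hoxa13 and Hoxb3 stayed under 10 counts in every library. The 16 untested genes with a count had a highest level of 0.0763 to 0.494 CPM. Between 20 and 34 Hox genes had a count above 0 in a given library, fewest in Space_R9del_D5, which is also the library with the smallest total. At least 10 counts were reached by 27, 24, 25 and 22 genes in Ground_R9wt_D5, Ground_R9wt_D1, Space_R9wt_D1 and Space_R9wt_D5, and by 18, 21, 17 and 12 genes in Ground_R9del_D1, Ground_R9del_D5, Space_R9del_D1 and Space_R9del_D5. These numbers are not adjusted for library size. The Ground R9wt totals, 91390994 and 96416907 counts, exceeded every R9del total (at most 72077524), while the Space R9wt totals lay within the R9del range.

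The clusters were compared next. In the mm9 build Hoxa spans chr6:52105366-52210874 on the minus strand, Hoxb chr11:96055630-96229570, Hoxc chr15:102751534-102867274 and Hoxd chr2:74506367-74603200, these 3 on the plus strand. Tested genes were 5 of 11 in Hoxa, 6 of 10 in Hoxb, 6 of 9 in Hoxc and 4 of 9 in Hoxd.

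Summed CPM of the Hoxc cluster was 7.20, 16.9, 10.4 and 10.4 CPM in R9wt and 3.40, 4.88, 3.86 and 2.83 CPM in R9del. For Hoxb it was 13.6, 9.76, 13.3 and 14.2 CPM in R9wt and 3.56, 5.32, 4.99 and 5.79 CPM in R9del. Hoxd gave 2.43, 5.29, 3.27 and 2.90 CPM in R9wt and 1.60, 1.94, 1.49 and 0.548 CPM in R9del. In these 3 clusters no R9del library reached the lowest R9wt library, and the ratios of the R9del to the R9wt mean were 0.333 for Hoxc, 0.386 for Hoxb and 0.402 for Hoxd. The Hoxa sum was 4.75, 7.76, 8.77 and 10.3 CPM in R9wt and 4.12, 4.59, 6.06 and 4.18 CPM in R9del. Here the genotypes overlapped, since Ground_R9wt_D1 lay within the R9del range, and the ratio was 0.600.

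Read by position in the cluster, the ratio of R9del to R9wt was 0.492 for the summed anterior genes (paralog groups 1 to 3), 0.449 for the central genes (4 to 8) and 0.389 for the posterior genes (9 to 13). None of these 3 sums overlapped between genotypes. With Hoxc13 and Hoxb13 left out, the sum over the other 36 genes had a ratio of 0.476, again with no overlap. Differences between the ratios of clusters or positions were not tested.

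**Figure D2:**
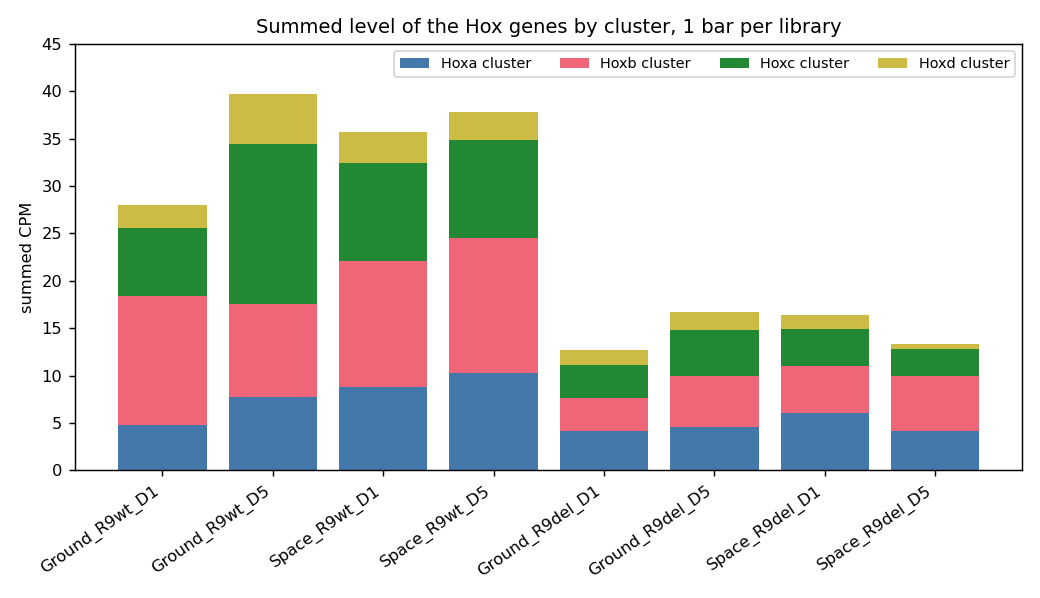
Summed CPM of the Hox genes in each of the 8 libraries, split by cluster, with 1 library per bar and no error bar. The 4 R9del bars end between 12.7 and 16.7 CPM, below the lowest R9wt bar at 28.0 CPM.

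The members are described by position from the posterior end. Hoxc13, which acts in hair follicle and nail differentiation, stood at 4, 12, 7.69 and 5.59 CPM in R9wt and 2.25, 3.43, 2.67 and 1.92 CPM in R9del. Hoxb13, known for its role in the tail end of the body axis and in the prostate, stood at 9.85, 1.99, 6.32 and 4.74 CPM in R9wt and 1.5, 1.88, 1.29 and 1.83 CPM in R9del. R9wt lay above R9del throughout for both genes, but the R9wt values spread widely: Hoxc13 peaked in Ground_R9wt_D5, while Hoxb13 was lowest in that library, at 1.99 CPM against 1.88 CPM in Ground_R9del_D5. The fitted R9del difference was -1.51 ± 0.41 for Hoxc13 and -1.82 ± 0.47 for Hoxb13 (log2, SE).

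Hoxc10, a gene of hindlimb-level motor neurons, stood at 0.741, 1.30, 1.60 and 1.89 CPM in R9wt and 0.152, 0.402, 0.543 and 0.240 CPM in R9del. Hoxc11, from the paralog group that patterns kidney and hindlimb, stood at 0.308, 0.196, 0.258 and 0.609 CPM in R9wt and 0.0608, 0.0536, 0.0572 and 0.0685 CPM in R9del. Hoxc12, the gene between Hoxc11 and Hoxc13, stood at 1.06, 1.57, 0.137 and 0.378 CPM in R9wt and 0.0456, 0.335, 0 and 0 CPM in R9del. Hoxc10 and Hoxc11 did not overlap between genotypes. Hoxc12 did, because Ground_R9del_D5 exceeded Space_R9wt_D1, and 2 R9del libraries had no count. Hoxc11 had 4 counts in every R9del library, which may be very few fragments, against 17 to 37 counts in R9wt. The fitted differences were -2.04 ± 0.53 for Hoxc10, -2.48 ± 0.59 for Hoxc11 and -3.00 ± 1.27 for Hoxc12.

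Hoxa9, a regulator of blood stem and progenitor cells, stood at 0.353, 1.95, 1.11 and 0.230 CPM in R9wt and 0.182, 0.188, 0.143 and 0.120 CPM in R9del. Its R9wt values spanned a wide range, and the lowest of them, 0.230 CPM in Space_R9wt_D5, was close to the highest R9del value of 0.188 CPM. The fitted difference was -2.51 ± 0.71. Hoxa10, a gene needed for uterine development, stood at 0.228, 0.392, 0.669 and 0.576 CPM in R9wt and 0.258, 0.375, 0.529 and 1.01 CPM in R9del. Hoxd13, a digit patterning gene, stood at 0.285, 1.47, 0.562 and 0.313 CPM in R9wt and 0.790, 0.228, 0.786 and 0.240 CPM in R9del. Both overlapped between genotypes, with fitted differences of 0.22 ± 0.57 for Hoxa10 and -0.37 ± 0.69 for Hoxd13. Hoxb9, which patterns the thorax, stood at 2.83, 3.36, 3.01 and 7.21 CPM in R9wt and 1.06, 2.26, 3.12 and 2.84 CPM in R9del. It was lower in R9del in 3 of 4 pairs and overlapped, at -0.82 ± 0.46.

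Of the central genes, Hoxd8 stood at 0.9, 0.752, 1.08 and 1.45 CPM in R9wt and 0.0760, 0.750, 0.1 and 0.120 CPM in R9del. It was high in R9wt and at 5 to 7 counts in 3 R9del libraries, while Ground_R9del_D5 reached 0.750 CPM against 0.752 CPM in Ground_R9wt_D5, so the genotypes were separated by almost nothing there. Hoxb7, whose regulatory region is active in the ureteric bud, stood at 0.342, 2.40, 2.46 and 1.22 CPM in R9wt and 0.258, 0.335, 0.0572 and 0.651 CPM in R9del. R9wt exceeded R9del in 4 of 4 pairs, though Ground_R9wt_D1 lay inside the R9del range. The fitted differences were -1.98 ± 0.76 for Hoxd8 and -2.30 ± 0.78 for Hoxb7. Hoxb7 and Hoxb8 share exon sequence on the same strand (26.2% of the exon bases of Hoxb7), so counts could have passed between them.

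Hoxa7, another trunk gene, stood at 0.695, 0.600, 1.41 and 1.55 CPM in R9wt and 0.912, 0.790, 1.80 and 0.685 CPM in R9del. It did not separate the genotypes (-0.02 ± 0.50), and 20.4% of its exon bases overlap an antisense gene, whose reads cannot be told apart without strand. Hoxc4, a central gene also expressed in lymphoid cells, stood at 0.547, 1.07, 0.258 and 0.724 CPM in R9wt and 0.122, 0.268, 0 and 0.377 CPM in R9del. Hoxb4, known for expanding blood stem cells, stood at 0.0456, 0.512, 0.213 and 0.905 CPM in R9wt and 0, 0.268, 0.129 and 0.462 CPM in R9del. Both were lower in R9del in 4 of 4 pairs but overlapped, with differences of -1.76 ± 0.93 and -0.96 ± 1.09.

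Of the anterior genes, Hoxb1, a hindbrain segment identity gene, stood at 0.114, 0, 0.380 and 0 CPM in R9wt and 0.350, 0.161, 0.257 and 0 CPM in R9del. Neither genotype stood apart for Hoxb1 (0.65 ± 1.36). Hoxd1, described here after its values were seen, stood at 0.911, 1.77, 0.639 and 0 CPM in R9wt and 0.106, 0.254, 0.143 and 0.0856 CPM in R9del. Its R9wt libraries covered both the highest value and the only 0, and the difference was -2.48 ± 1.08.

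**Figure D3:**
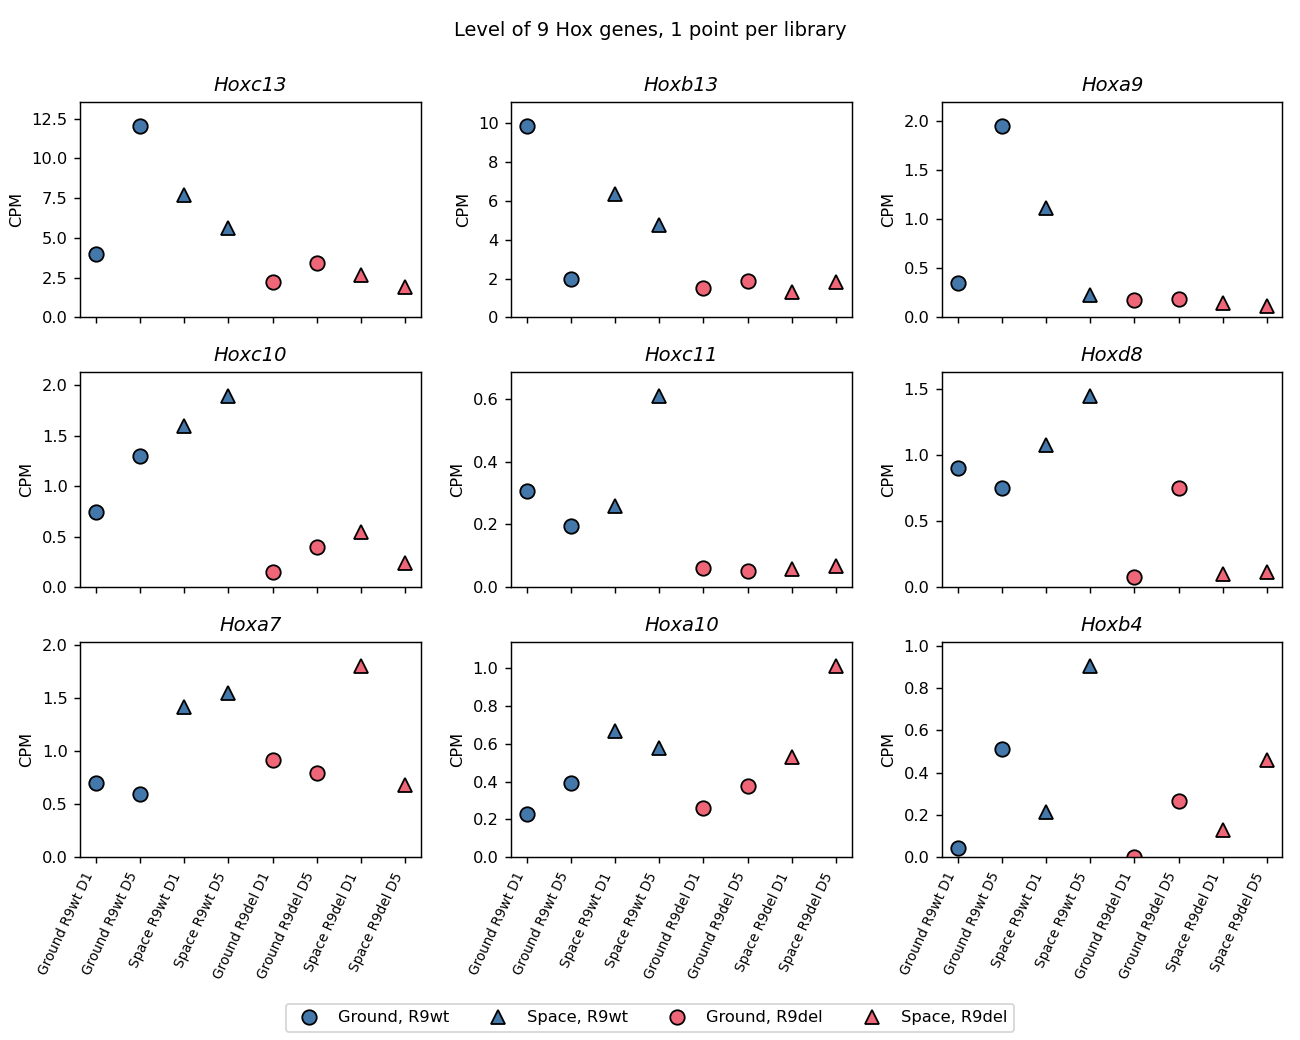
CPM of 9 Hox genes in the 8 libraries, 1 point per library, with circles for Ground, triangles for Space, blue for R9wt and red for R9del; each vertical axis starts at 0. Hoxc13, Hoxb13, Hoxa9, Hoxc10, Hoxc11 and Hoxd8 show red below blue, Hoxa7 and Hoxa10 do not, and Hoxb4 is higher at D5 than at D1.

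Promoter sequence was available in the RefSeq table (GRCm38.p6) for 22 of the 39 genes, as 24 windows. The 250 bases before the start were placed on mm9 by exact match. A pair of promoters of genes lower in R9del (Hoxd8 and Hoxa9) is set beside a pair from genes that were not (Hoxd13 and Hoxa10), 5′ to 3′ on the gene's strand with CG dinucleotides in capitals. The Hoxd8 window is chr2:74542422-74542671 (plus strand), in an intron of the antisense gene 1700109F18Rik, with 6 CG. The Hoxa9 window is chr6:52177370-52177619 (minus strand), in an intron of Hoxa9 in the mm9 annotation, with 3 CG. The Hoxd13 window is chr2:74506032-74506281 (plus strand) and the Hoxa10 window printed is chr6:52190854-52191103 (minus strand), with 31 and 7 CG and no annotated gene in either. A second Hoxa10 window, in an intron of that gene, has 20 CG and is not printed. The printed windows are examples and do not stand for the 2 kinds of gene. Hoxd1, also lower in R9del, has a window with 24 CG, and Hoxa7, which was not, has one with 7. A link between CG and the genotype difference was not tested.
Hoxd8: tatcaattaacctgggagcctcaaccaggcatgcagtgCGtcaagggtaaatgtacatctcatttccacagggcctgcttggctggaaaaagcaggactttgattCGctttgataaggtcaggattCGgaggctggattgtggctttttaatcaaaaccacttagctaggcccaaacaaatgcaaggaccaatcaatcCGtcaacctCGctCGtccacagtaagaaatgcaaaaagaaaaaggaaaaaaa
Hoxa9: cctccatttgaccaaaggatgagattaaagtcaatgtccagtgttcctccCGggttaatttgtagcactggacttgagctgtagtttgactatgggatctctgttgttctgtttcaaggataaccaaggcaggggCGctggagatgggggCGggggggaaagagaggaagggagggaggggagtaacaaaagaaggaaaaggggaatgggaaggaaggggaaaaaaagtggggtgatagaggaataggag
Hoxd13: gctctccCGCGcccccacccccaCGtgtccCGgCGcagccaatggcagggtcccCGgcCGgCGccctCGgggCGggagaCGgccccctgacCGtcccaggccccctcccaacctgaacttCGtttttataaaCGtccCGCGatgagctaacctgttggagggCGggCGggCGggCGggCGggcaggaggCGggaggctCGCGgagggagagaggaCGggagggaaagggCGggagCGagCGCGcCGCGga
Hoxa10: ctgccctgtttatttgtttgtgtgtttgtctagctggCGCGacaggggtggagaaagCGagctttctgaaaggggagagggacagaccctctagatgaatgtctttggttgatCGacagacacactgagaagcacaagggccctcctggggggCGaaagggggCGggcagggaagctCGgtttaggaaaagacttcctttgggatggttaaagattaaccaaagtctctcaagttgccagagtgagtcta
Over the 24 Hox windows the median was 12.5 CG and 58.6% GC, against 6 CG and 52.4% GC over 32851 windows of 27025 genes. TATAAA, the TATA box letters, was found on either strand in 16.7% of Hox windows and 12.4% of all windows; of the 4 printed, only Hoxd13 holds it, and the second Hoxa10 window does too. TGATNNAT, the letters of joint Pbx and Hox binding, was found in 16.7% and 7.7%, and in none of the 4 printed. A match in letters is a description and not a binding site.

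Taken as groups of 4 libraries, R9del was compared with R9wt in edgeR's quasi-likelihood test. A gene was called at a difference of at least 2-fold and an unadjusted p under 0.05. Such p-values pool 8 different conditions with 1 library each, and measure only the spread between these libraries. The space cultures had 1 device for each condition, with no duplicate. Among the 21 tested Hox genes, 9 were called lower in R9del, beside 7.39% of all tested genes: Hoxa9, Hoxb7, Hoxb13, Hoxc10, Hoxc11, Hoxc12, Hoxc13, Hoxd1 and Hoxd8. No Hox gene (0 of 21) was called higher in this test, beside 6.37% of all genes. Under DESeq2's Wald test and edgeR's exact test the same 9 were called lower and 0 higher. The median log2 difference of the 21 tested genes was -1.51, against -0.05 over all tested genes. For the 37 genes with a count, the median difference of mean log2 CPM was -0.81 (-1.27 with a prior count of 0.5).

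After Benjamini-Hochberg adjustment over all 20473 genes, the quasi-likelihood test of edgeR put 0 Hox genes at an adjusted p under 0.05, beside 2.03% of all genes, while 9 passed at the unadjusted p. Hoxc11 came nearest, with an adjusted p of 0.0630 in edgeR's quasi-likelihood test (lower in 4 of 4 pairs). DESeq2's Wald test passed 6 (Hoxa9, Hoxb7, Hoxb13, Hoxc10, Hoxc11 and Hoxc13) and edgeR's exact test passed 5, the same without Hoxb7. These tests also passed more of all 20473 genes: 849 higher and 928 lower by DESeq2's Wald test, and 727 higher and 689 lower by edgeR's exact test. In edgeR's quasi-likelihood test 242 were higher and 174 lower. With matched pairs as a block, 3 passed (Hoxc10, Hoxc12 and Hoxc13), beside 742 higher and 660 lower among all 20473 genes. The adjusted count thus differed between tools, and the unadjusted count did not.

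Single libraries mattered for some of the 9. Leaving out Ground_R9del_D1, Space_R9del_D1 or Space_R9del_D5 left 6 calls each time, Hoxa9, Hoxb7, Hoxb13, Hoxc10, Hoxc11 and Hoxc13. Those 6 were called under every alternative run. Hoxc12 lost its call without any of these 3 libraries (-2.75, -2.60 and -2.61) and without Ground_R9wt_D1 (-2.83) or Ground_R9wt_D5 (-2.42). Hoxd8 lost it without the same 3 (-1.66, -1.71 and -1.75) and without Space_R9wt_D5 (-1.78).

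Hoxd1 was the least stable of the 9. Its call was lost without Ground_R9wt_D1 (-2.45), Ground_R9wt_D5 (-1.81), Space_R9wt_D1 (-2.61), Ground_R9del_D1 (-2.34), Space_R9del_D1 (-2.48) or Space_R9del_D5 (-2.29), and also in the additive model (-2.16) and with the pair block (-1.87, unadjusted p = 0.104). Hoxc4 was called in its place with the block (-2.20, unadjusted p = 0.0221). Without Ground_R9del_D5, Hoxd9 was added and 1 gene, Hoxd8, passed the adjusted threshold, beside 66 higher and 29 lower among all genes.

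Over the 37 genes with a count, 7 had every R9del library below every R9wt library (Hoxa9, Hoxb13, Hoxc10, Hoxc11, Hoxc13, Hoxd3 and Hoxd8), beside 4.44% of all genes with a count. Of the 21 tested genes 6 did so, beside 6.89% of all tested genes. The reverse order was seen for 0 of 37, beside 5.08%. The exact permutation test gave p = 0.0286 (two-sided) for each gene with no overlap, the smallest p that 4 libraries against 4 allow. Hoxd3 rests on at most 10 counts per library.

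**Figure D4:**
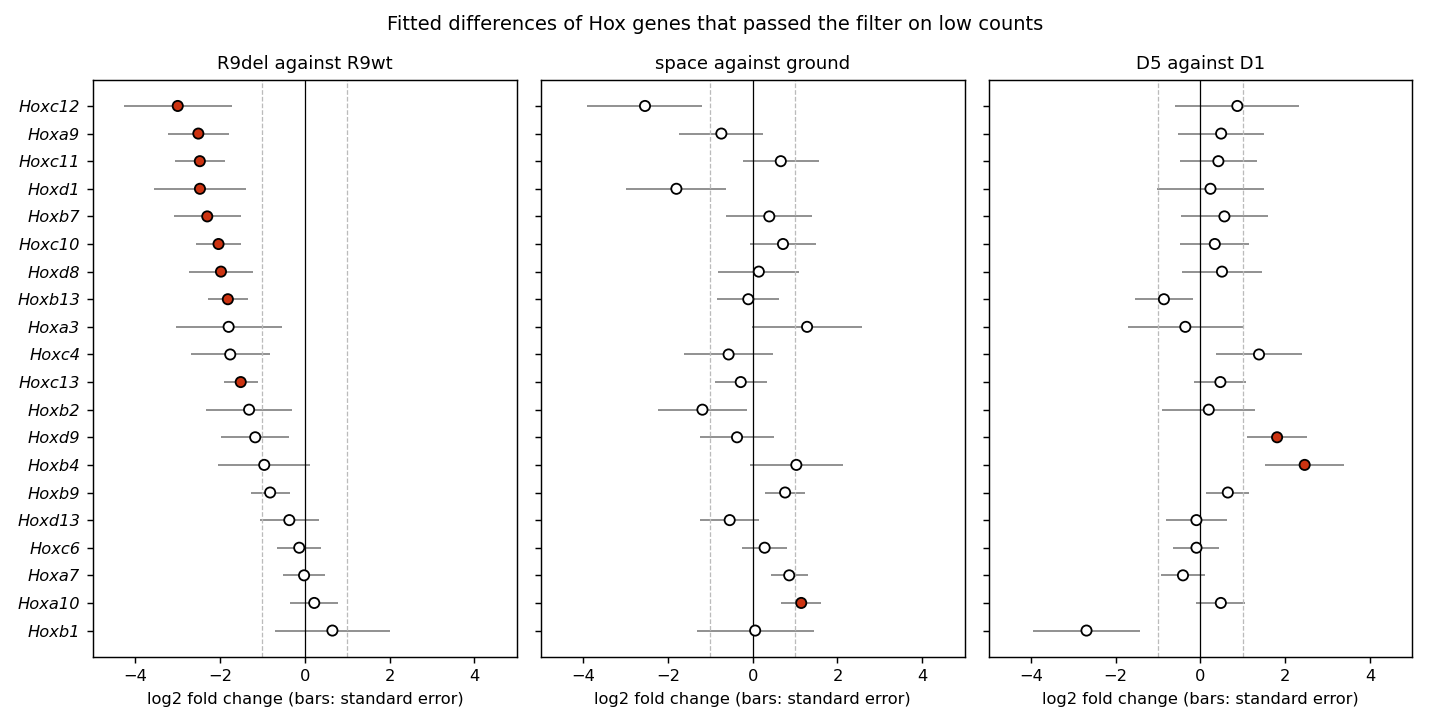
Fitted log2 fold changes with standard errors of tested Hox genes for R9del against R9wt, Space against Ground and D5 against D1; red points are at least 2-fold with an unadjusted p under 0.05, and dashed lines mark 2-fold. In the R9del panel 9 points are red, all to the left, against 1 for Space and 2 for D5, all to the right.

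The same genotype difference was read in each of the 4 matched pairs, with no test since each side is 1 library. A gene was counted when it differed at least 2-fold and had at least 10 counts in the larger library. On the ground at D1, 11 of 28 Hox genes were lower in R9del (13.1% of all genes) and 6 higher (15.8%). On the ground at D5, 16 of 29 were lower (17.9%) and 2 higher (19.1%). In space at D1, 15 of 26 were lower (20%) and 1 higher (20.1%). In space at D5, 15 of 23 were lower (15.5%) and 1 higher (15%). The lower side thus exceeded the share of all genes in each pair.

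At least 2-fold lower in 3 or more of the 4 pairs were 9 of 35 Hox genes (Hoxb13, Hoxc4, Hoxc8, Hoxc10, Hoxc11, Hoxc12, Hoxc13, Hoxd1 and Hoxd8), beside 5.61% of all genes. Hoxc10 and Hoxc11 were the 2 genes counted in all 4 pairs. With a minimum of 30 counts in place of 10, the number was 5. The number of Hox genes compared at 30 counts and the share of all genes are not given here, so the fall is not interpreted. The genes counted as higher on the ground at D1 were Hoxa2, Hoxb1, Hoxc5, Hoxd10, Hoxd11 and Hoxd13. None of these 6 was counted as higher in more than 1 further pair.

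**Figure D5:**
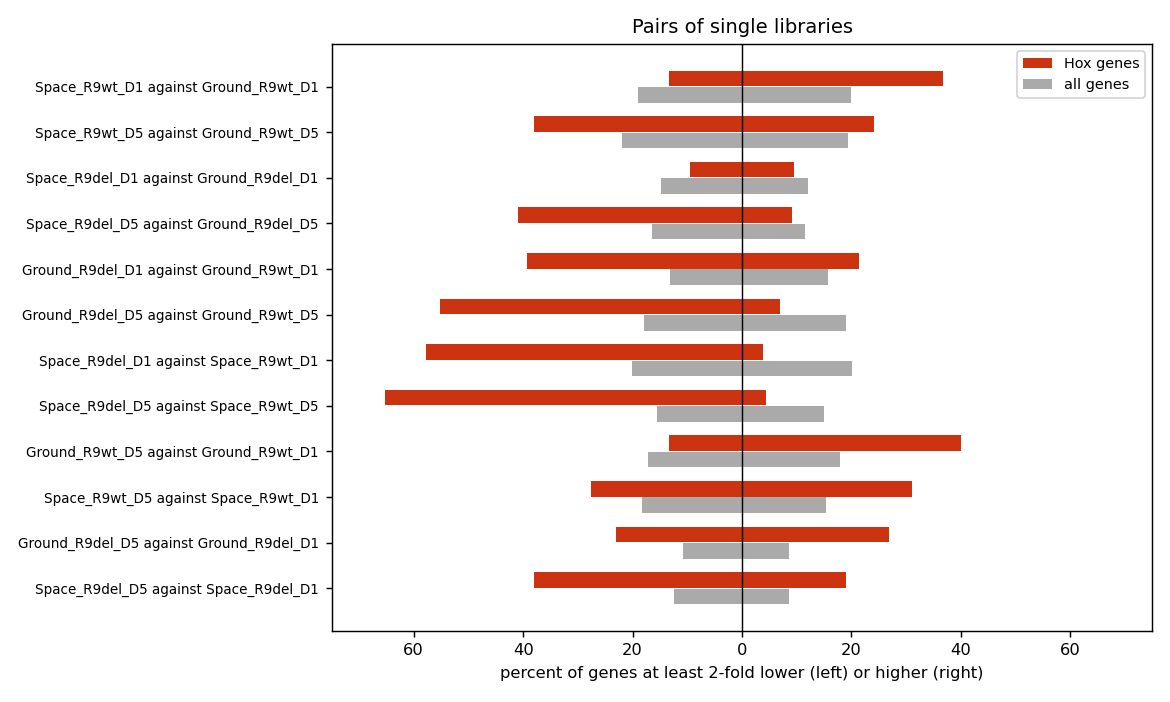
Percent of Hox genes (red) and of all genes (grey) that were at least 2-fold lower (left) or higher (right) in the 12 pairs of single libraries that differ in 1 variable. In the 4 pairs of R9del against R9wt the red bars reach farther left than the grey bars, and to the right only Ground D1 passes its grey bar.

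Space was compared with Ground over 4 libraries each. Among 21 tested Hox genes, 1 was called higher in Space, beside 2.91% of all genes, and 0 lower, beside 7.97%, in edgeR's quasi-likelihood test at the unadjusted p. DESeq2's Wald test and edgeR's exact test also called 1 higher and 0 lower. After adjustment 0 Hox genes passed in edgeR's quasi-likelihood test, DESeq2's Wald test or edgeR's exact test, beside 5.41% of all genes in the first. The median log2 difference was 0.14 over the 21 genes, with a range from -0.34 to 0.46 under the alternatives, and 0.05 over all genes. Over the 37 genes with a count it had the other sign, with a median difference of mean log2 CPM of -0.22 (-0.24 with a prior count of 0.5).

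The gene called was Hoxa10, whose values are given above: all 4 Space libraries, from 0.529 to 1.01 CPM, lay above all 4 Ground libraries, from 0.228 to 0.392 CPM. The difference was 1.15 ± 0.47 (log2, SE; adjusted p = 0.220 in edgeR's quasi-likelihood test; higher in 4 of 4 pairs). It lost its call without the filter on low counts (1.10), with the pair block (unadjusted p = 0.0521) and without Ground_R9wt_D1 (0.99), Ground_R9del_D1 (1.04), Ground_R9del_D5 (1.23), Space_R9wt_D1 (1.13) or Space_R9del_D5 (0.91). With the block Hoxc12 was called lower in Space (-3.16, unadjusted p = 0.00548), against -2.54 ± 1.36 without it, and in an additive model of the 3 variables it was called besides Hoxa10 (-3.25, adjusted p = 0.0364 in edgeR's quasi-likelihood test). The count of calls was 0 without Ground_R9wt_D1 or Ground_R9del_D5. Without Space_R9wt_D1 it was 2, both lower in Space, and without Space_R9wt_D5 1 was higher and 1 lower. Without the filter on low counts, or without Ground_R9del_D1, 0 were higher and 1 lower. The direction of the Space calls thus depended on the setting.

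Hoxc12, Hoxb4 and Hoxb9 moved the same way in 4 of 4 location pairs without passing the test: Hoxc12 was lower in Space in each, and Hoxb4 (1.03 ± 1.09) and Hoxb9 (0.76 ± 0.48) higher, while the groups overlapped for all 3. Some genes agree in 4 of 4 pairs by chance. The share of all genes that did so is not given here for location, genotype or duration, so such agreement is a description only. Over the 37 genes with a count, Hoxa10 was the 1 gene with every Space library above every Ground library, beside 3.81% of all genes. Hoxa2 and Hoxa5 were the 2 in the reverse order, beside 5.48%. Hoxa5 had 0 counts in 3 Space libraries and 4 in the other, and Hoxa2 likewise, so both rest on few fragments.

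Location pairs differed between genotypes and durations. For R9wt at D1, 11 of 30 Hox genes were at least 2-fold higher in Space (19.9% of all genes) and 4 lower (19%). For R9wt at D5, 7 of 29 were higher (19.3%) and 11 lower (22%). In R9del at D1, 2 of 21 were higher (12%) and 2 lower (14.7%), and in R9del at D5, 2 of 22 were higher (11.5%) and 9 lower (16.4%). The direction was towards higher in R9wt at D1 and towards lower in both genotypes at D5.

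The dependence on duration was tested as an interaction of location and duration, with genotype as covariate. At the unadjusted p, 2 of 21 Hox genes were called lower, that is, with a Space difference that was lower at D5 than at D1, beside 2.99% of all genes, and 0 higher, beside 3.12%. They were Hoxc13 (-1.56 ± 0.60) and Hoxb2 (-4.44 ± 1.53), the latter named after its values were seen. Hoxb2, a hindbrain gene, stood at 0.228, 0.959, 0.562 and 0.0658 CPM in R9wt and 0.258, 0.321, 0.143 and 0 CPM in R9del. It was higher in Space at D1 and lower at D5 in R9wt, and lower in Space at both times in R9del; 49.4% of its exon bases overlap an antisense gene. DESeq2's Wald test also called 2 of 21, and 0 passed after adjustment with either tool.

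Neither of the other interactions called a Hox gene in edgeR's quasi-likelihood test at the unadjusted p. For location and genotype the counts were 0 higher (1.36% of all genes) and 0 lower (1.48%), with 1 lower by DESeq2's Wald test. For genotype and duration they were 0 higher (1.27%) and 0 lower (2.99%), with 1 in each direction by DESeq2's Wald test. After adjustment 0 passed with both tools. A difference between R9wt and R9del in the response of Hox genes to space was therefore not detected, with 2 libraries per combination.

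D5 was compared with D1 over 4 libraries each. Of the 21 tested Hox genes, 2 were called higher at D5, beside 2.35% of all genes, and 0 lower, beside 1.08%, in edgeR's quasi-likelihood test at the unadjusted p. DESeq2's Wald test called 2 higher and 0 lower, and edgeR's exact test 2 higher and 1 lower. After adjustment 0 Hox genes and 0% of all genes passed in edgeR's quasi-likelihood test, and 0 Hox genes passed in DESeq2's Wald test or edgeR's exact test. The median log2 difference was 0.42 over the 21 genes, with a range from -0.10 to 0.73 under the alternatives, and -0.03 over all genes. Over the 37 genes with a count, the median difference of mean log2 CPM was 0.02, and -0.19 with a prior count of 0.5, so no common direction was seen.

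Hoxb4 was 1 of the 2. Every D5 library, from 0.268 to 0.905 CPM, lay above every D1 library, from 0 to 0.213 CPM, and the difference was 2.46 ± 0.93 (log2, SE; unadjusted p = 0.0251). The call was lost without Ground_R9wt_D1 (2.22) or Space_R9wt_D5 (2.09), and the D1 values correspond to at most 14 counts. Hoxd9, named after its values were seen and known for a shared role in the mammary gland, stood at 0.159, 0.916, 0.304 and 0.856 CPM in R9wt and 0.106, 0.630, 0.143 and 0.103 CPM in R9del. It was higher at D5 in 3 of 4 pairs and overlapped, through Space_R9del_D5, with a difference of 1.81 ± 0.72.

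The Hoxd9 call was lost with the pair block (1.61) and without Ground_R9wt_D1 (1.77), Ground_R9wt_D5 (1.57), Space_R9wt_D5 (1.62), Ground_R9del_D1 (1.64), Ground_R9del_D5 (1.81) or Space_R9del_D1 (1.73). The number of calls fell to 0 without Ground_R9wt_D1 or Space_R9wt_D5 and to 1 without Ground_R9del_D1, Ground_R9wt_D5 or Space_R9del_D1, and was 3 without Space_R9wt_D1. With the block Hoxb1 was called lower at D5 (-3.89, unadjusted p = 0.0170), against -2.69 ± 1.26 without it. The additive model called 4 genes, with Hoxb1 (-3.32) and Hoxc4 (1.87) added. Hoxb1 was lower at D5 in 4 of 4 pairs, overlapped, and had 0 counts in 3 of 4 D5 libraries. Hoxc4 was higher at D5 in 4 of 4 pairs, at 1.38 ± 1.00, and overlapped.

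Among the 37 genes with a count, Hoxb4 was the 1 gene with all D5 libraries above all D1 libraries, beside 1.11% of all genes, and Hoxd12, at 10 counts or fewer throughout, the 1 gene in the reverse order, beside 1.06%. In single pairs, 12 of 30 Hox genes were at least 2-fold higher at D5 in Ground R9wt (18% of all genes) and 4 lower (17.1%). For Space R9wt, 9 of 29 were higher (15.3%) and 8 lower (18.3%). For Ground R9del, 7 of 26 were higher (8.63%) and 6 lower (10.7%), and for Space R9del, 4 of 21 were higher (8.49%) and 8 lower (12.4%). Hoxb4 was the gene counted as higher in all 4 of these pairs.

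Genes that act with or upstream of Hox genes were read from fixed lists at the same unadjusted threshold. Of 9 TALE cofactors, all tested, 2 were higher and 1 lower in Space: Meis2 (1.39 ± 0.59), Pknox2 (1.60 ± 0.42) and Meis3 (-1.92 ± 0.54). In R9del 1 was higher, Meis1 (1.65 ± 0.71), and 1 lower, Pbx4 (-1.13 ± 0.41). The most abundant, Pknox1, stood at 38.0, 39.6, 77.1 and 68.3 CPM in R9wt and 41.9, 37.4, 62.5 and 69.7 CPM in R9del. It was higher in all Space libraries, by less than 2-fold. With the pair block Meis1 joined the genes higher in Space (1.30) and Pbx4 lost its call in R9del. No cofactor (0 of 9) was called for D5 in edgeR's quasi-likelihood test at either p; DESeq2 and the exact test were not run on the lists.

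Cdx1 and Cdx2, homeodomain genes that activate central and posterior Hox genes in the embryo, differed by location. Cdx1 stood at 6.23, 7.22, 0.654 and 0.856 CPM in R9wt and 2.86, 4.35, 0.386 and 0.582 CPM in R9del. Cdx2 stood at 0.649, 2.86, 0.152 and 0.378 CPM in R9wt and 1.73, 0.804, 0.157 and 0.0685 CPM in R9del. Every Space library was below every Ground library for both, with differences of -3.06 ± 0.45 and -2.99 ± 0.70 and adjusted p = 0.00274 and 0.0329 (edgeR's quasi-likelihood test; lower in 4 of 4 pairs each). They were 2 of the 3 tested genes of the 6 in the Cdx and ParaHox list; by genotype and by duration 0 of 3 were called at the unadjusted or adjusted p in that test. By genotype, where 9 Hox genes were called, both Cdx genes overlapped between the groups of 4 libraries. Within matched pairs Cdx1 was lower in R9del in 4 of 4 (-0.87 ± 0.95), and Cdx2 was lower in 2 and higher in 2.

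Genes of the retinoic acid pathway differed in both directions in R9del. The receptor gene Rarg stood at 93.0, 21.4, 79.2 and 39.4 CPM in R9wt and 243, 139, 309 and 194 CPM in R9del. It was higher in all R9del libraries (1.93 ± 0.45), and Rxra also (1.00 ± 0.35). Lower were the binding protein gene Crabp1 (-2.06 ± 0.52) and the reductase gene Dhrs3 (-1.24 ± 0.48). In Space Cyp26b1, which degrades retinoic acid, was higher (1.77 ± 0.55) and Crabp2 lower (-1.41 ± 0.45). At D5 Stra8, a retinoic acid target, was higher (1.15 ± 0.45) and Rxrg lower (-2.15 ± 0.63). With the pair block 4 genes of the pathway were called at D5, Dhrs3 (1.06) and Rarg (-1.14) being added, and Rxrg was added as higher in R9del (1.20).

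Of 13 tested genes of the Trithorax and Hox activation list, led by Ash2l, 1 was higher in Space, Gdf11 (1.39), and 0 were called by genotype or duration at the unadjusted or adjusted p in edgeR's quasi-likelihood test; the pair block called Rbbp5 higher in R9del (1.12). Gdf11, Rbbp5, Jazf1, Skap1, Zic1, Wnt3a, T, Col1a2, Mesp1, Zfp42, Ttr, Foxa2, Sox7 and Pax6 are named after their values were seen. Genes beside the clusters were tested for 19 of 22; Prac was not analysed here. In Space 1 of the 19 was lower and 0 higher, in R9del 2 were lower, Jazf1 (-1.16) and Skap1 (-1.04, lost with the block), and 0 higher, and at D5 0 were called in that test. The 1 gene in Space was Mtx2, next to the Hoxd cluster, at 179.7, 134, 8.76 and 9.44 CPM in R9wt and 117, 121, 8.42 and 11.7 CPM in R9del. It was lower in every Space library (-3.85 ± 0.24, adjusted p = 3.34e-05, edgeR's quasi-likelihood test; lower in 4 of 4 pairs). The tested Hoxd genes showed no call by location.

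Markers of other cell types were read beside the genotype difference, since fibroblasts and other differentiated cells express Hox genes. The 12 fibroblast markers summed to 44.6, 66.7, 59.0 and 56.9 CPM in R9wt and 31.3, 33.9, 41.1 and 62.3 CPM in R9del. The sums overlapped between genotypes, and 1 of 8 tested markers was lower in R9del, Pdgfrb (-1.30 ± 0.46), with 0 higher. Pdgfrb was also the 1 marker called in Space (1.20 ± 0.48, higher), and Col1a2 the 1 called at D5 (1.88, higher; lost with the block). Thy1 was the most abundant. Postn, Dcn and Lum were at 0 in at least 4 libraries each and never above 0.115 CPM, and Col1a1, the main fibroblast collagen, lay between 3.77 and 10.4 CPM.

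The 10 neural markers, 9 of them with an entry and 6 tested (Sox1 was not analysed here), summed to 48.3, 30.3, 39.7 and 27.6 CPM in R9wt and 118, 102, 111 and 136 CPM in R9del. This sum was higher in all R9del libraries and was led by Tubb3, a neuronal tubulin gene, at 26.3, 11, 6.35 and 11.3 CPM in R9wt and 83.7, 78.0, 72.5 and 117 CPM in R9del. Tubb3 was 1 of 6 called higher (2.68 ± 0.43, adjusted p = 0.0328, edgeR's quasi-likelihood test; higher in 4 of 4 pairs), and Zic1 was lower (-2.24). The median log2 difference over the 6 was 0.38, and Pax6 and Hes5 of this list overlapped between genotypes. The sum without Tubb3 is not given here, so the higher sum does not describe the list as a whole. None of the 9 was at 0 in every library. The part of these cells or markers in the Hox difference was not tested.

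The 10 mesoderm and posterior axis markers, 8 of them tested and Eomes the most abundant, summed to 19.7, 21.4, 20.4 and 36.7 CPM in R9wt and 16.4, 23.8, 15.4 and 17.6 CPM in R9del. In R9del 3 of 8 were higher, Kdr (2.20), Wnt3a (1.67) and Meox1, and 3 lower, T (-1.14), Tbx6 (-1.63) and Eomes (-1.17). Meox1, a somite gene, differed by 2.33 ± 0.47 (adjusted p = 0.0437, edgeR's quasi-likelihood test; higher in 4 of 4 pairs). In Space 1 was lower, Mesp1 (-3.37). The sums overlapped, and their part in the Hox difference was not tested.

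Beside the D5 calls, 5 of 8 endoderm markers and 5 of 7 tested trophoblast markers were higher at D5 and 0 lower at the unadjusted p. The endoderm sum, led by Dab2, was 27.4, 46.3, 13.8 and 129.7 CPM in R9wt and 39.5, 62.5, 57.9 and 201 CPM in R9del. The trophoblast sum, led by the keratin gene Krt18, was 199, 1762, 197 and 2744 CPM in R9wt and 267, 842, 361 and 507 CPM in R9del. D5 exceeded D1 in 4 of 4 pairs for both sums, and no marker of either list was at 0 in every library. Cdx2 and Eomes of the trophoblast list are also in other lists used here. With the pair block 4 of 7 trophoblast markers were called at D5. Their part in the Hoxb4 and Hoxd9 values was not tested. By location the endoderm list went both ways: Dab2 was higher in Space (1.66 ± 0.73, lost with the block) and Sox17 lower (-3.88 ± 0.81), and the block added Ttr as higher (3.05) and Foxa2 as lower (-1.46). Sox7 of that list was higher in R9del (2.41 ± 0.94). Of the neural list, Hes5 was lower in Space (-4.65 ± 1.02) and Pax6 lower at D5 (-2.32 ± 0.65).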

How the data were processed

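RNA of 8 mESC libraries was measured, 1 for each combination of location, genotype and culture duration. The authors deposited whole-number read counts per Ensembl gene, without normalization. The submitters' processing notes name FastQC, TopHat2 (2.0.9), the mm9 genome and edgeR; the counting program, annotation and strand handling are not given in the sources used here. Gene symbols were matched for 32722 of 50686 identifiers (64.6%), and older symbols of list genes through RefSeq synonyms.

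Counts were filtered with filterByExpr (minimum count 10) and then scaled by TMM in edgeR 4.0.16 (R 4.3.3), and tested over all 20473 genes with the quasi-likelihood test, with Benjamini-Hochberg adjustment. Groups of 4 libraries were compared without covariates; interactions had the third variable as covariate. A prior count of 2 was used for log2 CPM. The genotype fit was also run on simulated counts with known changes. These had the same spread for every gene, no effect of location or duration, and changes only in more abundant genes. Most Hox genes lie below that level, so the simulation does not show how the fit performs for them.

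Alternatives were DESeq2 1.42.0 (size factors and Wald test), library size alone, edgeR's exact test, no filter, an additive model, matched pairs as a block without and with a GC offset, a prior count of 0.5, thinned libraries, and each library left out. Division of the counts by 3.33 and TMM before the filter were added after seeing the data. Libraries pair by the other 2 variables in the labels: paired deviations from the group means correlated at 0.283 to 0.609 (location), 0.349 to 0.489 (genotype) and 0.375 to 0.576 (duration), against means of -0.124, -0.129 and -0.152 for other pairings.

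Genes were named by rule: the 10 Hox genes with the highest mean CPM, those past an adjusted p under 0.05, and in each group comparison the 3 tested genes with the largest change among those with 1 direction in 4 of 4 pairs. From the lists, genes past an adjusted p under 0.05 and 2-fold, the 3 most abundant, and cofactor, Cdx or retinoic acid genes at an unadjusted p under 0.05 and 2-fold could be named. Of the genes under these rules, 2 are not reported here. The members and lists were chosen with earlier results of these data known. Promoter windows came from RefSeq.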

Additional observations from a re-analysis of the deposited data

Results flagged for a closer look

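The Hox genes that were named by the rule or called, and the Hox sums, were read in groups of 4 libraries that share 1 label, and in 16 of 150 such groups 1 library lay far from the other 3. With only 4 values, chance alone marks some groups, about 1 in 20. The values are in CPM and no cause was tested.

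Among posterior genes, Hoxa9 in Ground_R9wt_D5 had 1.95, against 0.182 to 0.353 in the other Ground libraries and 0.120 to 0.230 in the other D5 libraries. In Space_R9wt_D1 it had 1.11, against 0.120 to 0.230 in the other Space libraries. Hoxb13 in Ground_R9wt_D1 had 9.85, against 1.5 to 1.99 in the rest of Ground, and in Space_R9wt_D5 it had 4.74, against 1.83 to 1.99 in the rest of D5. Hoxb9 in Space_R9wt_D5 had 7.21, against 2.84 to 3.12 in the rest of Space and 2.83 to 3.36 in the rest of R9wt, and in Ground_R9del_D1 it was low at 1.06, against 2.83 to 3.12 in the rest of D1. Hoxc12 in Ground_R9wt_D1 had 1.06, against 0 to 0.137 in the rest of D1, and in Ground_R9del_D5 it had 0.335, against 0 to 0.0456 in the rest of R9del. Hoxd13 in Ground_R9wt_D5 had 1.47, against 0.228 to 0.313 in the rest of D5.

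Among central and anterior genes, Hoxb7 in Ground_R9wt_D5 had 2.40, against 0.258 to 0.342 in the rest of Ground, and in Space_R9wt_D1 it had 2.46, against 0.0572 to 0.342 in the rest of D1. Hoxd8 in Ground_R9del_D5 had 0.750, against 0.0760 to 0.120 in the rest of R9del. Hoxd1 in Ground_R9wt_D5 had 1.77, against 0 to 0.254 in the rest of D5. Hoxb1 in Ground_R9del_D5 had 0.161, against 0 in the other 3 D5 libraries.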

How the results depend on the processing

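Counts of called Hox genes that moved by more than 1.5 times were these. In the additive model D5 gave 4 calls in place of 2 and Space 2 in place of 1, and the adjusted p passed 1 gene for Space and 1 for R9del in place of 0. Among all 20473 genes that model passed 260 higher and 1320 lower for Space, and 608 higher and 625 lower for R9del. For R9del the adjusted p passed 6 by DESeq2's Wald test, 5 by edgeR's exact test, and 3 with the pairs as a block, without and with a GC offset (GC known for 85.5% of tested genes). The counts over all genes are given above, and with the GC offset they were 737 higher and 699 lower of 17505. DESeq2's Wald test gave 2 calls for the interaction of genotype and duration and 1 for location and genotype, each in place of 0. Without the covariate, genotype and duration gave 1 in place of 0, and location and duration 1 in place of 2. A minimum of 30 counts left 5 of 9 genes lower in at least 3 single pairs. Leaving out 1 library gave 0 to 3 calls for D5, 0 to 2 for Space and, at the adjusted p, 0 to 1 for R9del. The cause was not tested, except that fewer libraries or genes enter the last 2 settings.

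The unadjusted R9del count stayed between 6 and 10. Over 18 alternatives for each, none of the differences called between groups of 4 changed sign: Hoxa9 (-2.83 to -1.83), Hoxb13 (-2.12 to -1.43), Hoxb7 (-2.88 to -1.98), Hoxc10 (-2.38 to -1.80), Hoxc11 (-2.68 to -2.05) and Hoxc13 (-1.74 to -1.17) stayed past the threshold in 18, Hoxb4 in 16, Hoxd8 in 14, Hoxc12 in 13, Hoxa10 and Hoxd9 in 10 and Hoxd1 in 9. The ratio of summed Hox CPM was 0.418 with DESeq2 size factors and 0.435 by library size. The median log2 difference kept its sign for R9del, and for Space and D5 it did not. Dividing counts by 3.33 and TMM before the filter, both chosen after seeing the data, gave 9 R9del calls each. The pair block changed no Hox call beyond those given above. Levels under the CPM of 10 counts may rest on very few fragments, as stated above.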

Other observations

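Hoxa11as, a noncoding gene antisense to Hoxa11, stood at 0.137, 0.0981, 0.274 and 0.378 CPM in R9wt and 0.106, 0.0402, 0.143 and 0.685 CPM in R9del, in the order used above. All 4 Space libraries lay above all 4 Ground libraries, an order seen for 3.81% of all genes with a count. The margin was small, with 0.143 CPM in Space_R9del_D1 against 0.137 CPM in Ground_R9wt_D1. Hoxa11as lies outside the rules for naming genes, was below the filter and was not tested. Of the exon bases of Hoxa11, 38.6% overlap it, where reads cannot be told apart without strand.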
